A study of Mus musculus with 8 samples.

Results

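Deep-layer excitatory neurons that express Fezf2 were examined in single-nucleus RNA-seq libraries of brain hemispheres, from which cerebellum and olfactory bulb had been removed. A nucleus was included where the authors had annotated it as a neuron and it held at least 2 unique molecular identifiers (UMIs, each a single captured RNA molecule) of Slc17a7 and at least 2 of Fezf2, at most 1 of Gad1 and Gad2 together, at most 2 of Prox1, at most 2 of Cux2 and at most 4 of Foxp2. Of 61949 nuclei, 45141 were neurons, 17395 of these passed the limits for Slc17a7 and for Gad1 and Gad2 (called Slc17a7 neurons here), and 243 passed every limit. The mice were of the C57BL6/J strain, 6 months old, and of 4 genotypes with 2 libraries each. Wild-type (WT) mice carried neither change. Cnp-/- mice lack CNP, an enzyme of myelin-forming oligodendrocytes, in every cell. 5xFAD mice carry transgenes of familial Alzheimer's disease, among them mutant human amyloid precursor protein, and deposit amyloid in the brain. Cnp-/- 5xFAD mice carry both changes. A general statement of the study says that animals were pooled in pairs for each single-cell replicate. Its methods state pooling for a dataset of younger mice but not for the 6-month libraries used here. Whether a library held 1 animal or 2 is therefore unclear, and p-values measure the spread between libraries.

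Fezf2 is a transcription factor that directs cortical neurons to the fate of layer 5 cells projecting out of the telencephalon, such as corticospinal and other subcerebral neurons. Layer 5 also holds neurons that project within the telencephalon and near-projecting neurons, and layer 6 holds corticothalamic cells in which Foxp2 is active. The 5xFAD transgenes are driven by the promoter of Thy1, a gene for a surface glycoprotein of projection neurons, and layer 5 is a site of early amyloid in these mice.

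The libraries yielded 24 and 69 such nuclei for WT replicates 1 and 2, 27 and 16 for Cnp-/-, 48 and 22 for 5xFAD, and 21 and 16 for Cnp-/- 5xFAD. Their summed depth ran from 207148 UMIs in Cnp-/- 5xFAD replicate 2 to 1084222 UMIs in WT replicate 2, of 68905044 to 82399061 UMIs in a whole library. The median nucleus held 14836 UMIs and 4532 detected genes, against 11349 UMIs in the other Slc17a7 neurons. None of the 243 nuclei shared a barcode with another of them, while 6 had a barcode that another library also used. The Cnp genotype labels held, since Cnp in mature oligodendrocytes lay at 219 to 321 CPM (UMIs of a gene per 1000000 UMIs) in the 4 libraries with Cnp and at 23.1 to 32.8 CPM in the 4 Cnp-/- libraries. In the 243 neurons Cnp had 0 to 6 UMIs per library and was not lower in Cnp-/-. It lay at 0 to 8.95 CPM in the libraries with Cnp and at 9.28 to 19.3 CPM in the Cnp-/- libraries. The check of the labels therefore rests on the oligodendrocytes. The labels give no sex. The study describes the mice of the Cnp-/- crosses as females, and states elsewhere that it used both sexes. The data go against females in every library, each of which held 3506 to 4611 UMIs of the Y-linked gene Ddx3y and 23 to 45 UMIs of Xist.

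The nuclei were selected on their measured UMIs of Slc17a7, Gad1, Gad2, Prox1, Cux2, Fezf2 and Foxp2, so levels of these and of other genes against other neurons are given as a description. Of the 243 nuclei, 180 held exactly 2 Fezf2 UMIs, 47 held 3, 12 held 4 and the rest 5 to 7. Just outside the limit were 806 nuclei that met every other criterion and held exactly 1. On the CPM scale, pooled over nuclei, those with exactly 2 Fezf2 UMIs had 249 of Bcl11b and 158 of Parm1, and those with exactly 1 had 202 and 118. The layer 6 gene Hs3st4 went the other way across the limit, with 730 and 796 CPM. So did Crym, which is listed below with Bcl11b and Parm1 for layer 5, with 52.1 and 57.9 CPM. In the descriptions below, a CPM value is taken over the summed nuclei of a library, or over all nuclei of a group where it is called pooled. It compares groups for 1 gene and does not compare genes, whose lengths differ.

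Markers of layer 5 neurons that leave the telencephalon were higher in these nuclei than in the other Slc17a7 neurons, and so were some genes of other lists. Bcl11b, which encodes CTIP2, a factor that acts downstream of Fezf2 in subcerebral neurons, lay between 167 and 275 CPM over the 8 libraries (median 245), against 72.7 to 132 (median 117) in the other Slc17a7 neurons. Parm1 lay between 99.6 and 239 CPM (median 146), against 23.2 to 58.9 (median 38.5). For both genes, all 8 libraries were above the other neurons of the same library. All 11 measured genes of the list for these layer 5 cells, Fezf2 among them, had a higher pooled level than in the other Slc17a7 neurons.

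Pou3f1, a transcription factor gene of subcerebral neurons, had 28.8 CPM pooled over libraries, against 7.7 in the rest. Npr3, a receptor that clears natriuretic peptides, had 63.7 against 18.6 CPM, and Ldb2 had 823 against 378 CPM. Bcl6, a transcription factor with layer 5 expression, had 47.3 against 16.7 CPM. Etv1, another such factor, was listed for layer 5 neurons that project within the telencephalon and had 177 against 63.6 CPM. That list of 5 genes summed to 849 against 728 CPM, and 3 of the 5 had a higher pooled level. Rorb of the same list was lower, at 108 against 181 CPM, and Rbp4 had 0 UMIs. Crym, a thyroid hormone-binding protein, had 58.9 CPM, above the 36.0 of the rest but below the 67.3 of Foxp2 neurons. Of the 8 general excitatory cortical genes, Slc17a7 of the rule included, 1 had a higher pooled level than in the other Slc17a7 neurons. The list summed to 1494 against 1720 CPM.

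Of 9 genes listed for hippocampus, subiculum and amygdala, Prox1 of the rule included, 3 had a higher pooled level than in the other Slc17a7 neurons. The list summed to 517 against 610 CPM. Fn1, the fibronectin gene, had 28.1 against 7.64 CPM and Rspo2, a gene for a secreted activator of Wnt signalling, had 92.3 against 73.2 CPM, each higher in 6 of 8 libraries. By the clusters that the authors assigned, 79 of the 111 Fn1 UMIs were in members of cluster 14 and 0 in members of cluster 22.

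Of the 6 upper-layer genes, Cux2 of the rule included, 5 had a lower pooled level than in the other Slc17a7 neurons. Cux1, a homeobox gene of layers above layer 5, lay between 38.6 and 109 CPM (median 92.1), against 188 to 278 (median 228) in the other Slc17a7 neurons. Calb1 had 11.4 CPM pooled and Rasgrf2 56.9 CPM, against 41.0 and 153 CPM. In all 8 libraries these 3 genes were below the other Slc17a7 neurons. Lamp5 was the exception, with 32.9 against 29.1 CPM pooled and a higher level in 7 of 8 libraries.

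For comparison, 2 further groups were drawn from the same Slc17a7 neurons, both with at most 2 Prox1 UMIs. Cux2 neurons held at least 3 Cux2 UMIs and at most 1 of Fezf2 (6920 nuclei), and Foxp2 neurons held at least 5 Foxp2 UMIs and at most 2 of Cux2 (1113 nuclei). Against the Foxp2 neurons, Pou3f1 (28.8 against 4.4 CPM) and Parm1 (166 against 52.6) were higher in all 8 libraries, and Bcl11b (242 against 205) in 6 of 8. Hs3st4 was lower in all 8, at 154 to 1114 CPM (median 744) against 1700 to 2445 (median 2026). Tle4, a corepressor gene of corticothalamic neurons, was also lower in all 8, at 53.1 to 202 against 334 to 457 CPM. Against all other Slc17a7 neurons the order was the other way, with 699 against 509 CPM of Hs3st4 pooled (higher in 7 of 8 libraries) and 125 against 110 CPM of Tle4 (higher in 4 of 8). The layer 6 list, Foxp2 of the rule included, summed to 938 against 787 CPM.

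**Figure D1:**
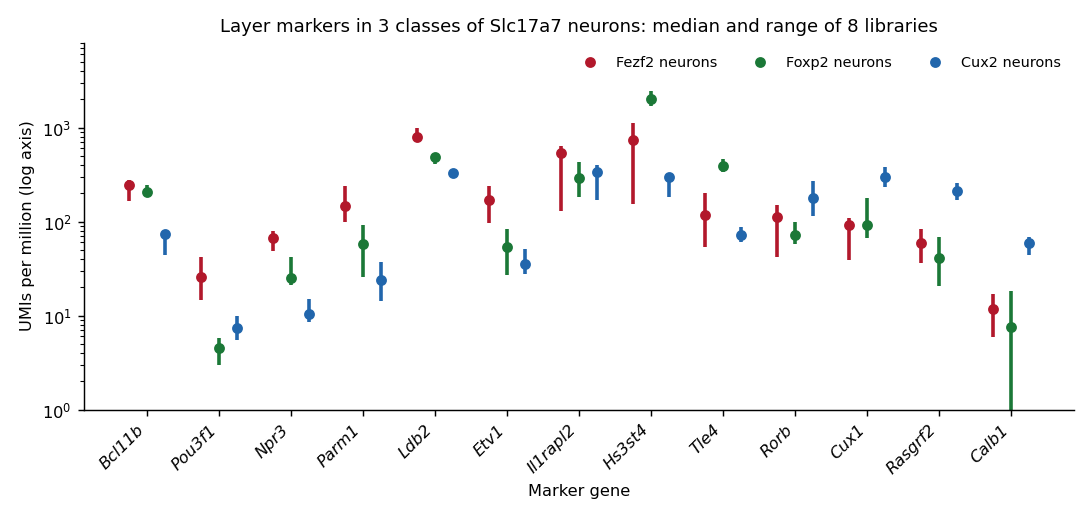
Level of layer markers in CPM (log axis) in the 243 Fezf2 neurons, the Foxp2 neurons and the Cux2 neurons. Points are medians of the 8 libraries and lines run from the lowest to the highest library, with a line that reaches the axis ending at or below 1 CPM. Parm1 and Npr3 are highest in the Fezf2 neurons, Cux1 and Calb1 in the Cux2 neurons, and Hs3st4 and Tle4 in the Foxp2 neurons.

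Markers of near-projecting layer 5 neurons were present. Their list of 7 genes summed to 480 CPM pooled, against 404 CPM in the other Slc17a7 neurons, and 3 of the 7 had a higher pooled level than there. Tshz2 gave most of the sum, with 337 against 250 CPM, Vwc2l had 81.2 against 86.9 CPM and Lypd1 24.3 against 19.0 CPM, while Slc17a8 and Trhr had 2 and 15 UMIs.

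Of the markers of other cell classes, some had 0 UMIs and others were present. Among inhibitory genes, Slc32a1, Lhx6, Sst and Vip had 0 UMIs in all 243 nuclei, while Adarb2 had 163 UMIs. Gad2 had 0 UMIs and Gad1 had 1, but the rule itself allowed a nucleus at most 1 of both together. The astrocyte genes Aqp4 and Gfap and the vascular genes Cldn5, Pecam1 and Rgs5 had 0, while the vascular gene Flt1 had 3. Cx3cr1 of microglia had 28 UMIs of 3953123 UMIs in all. All 7 oligodendrocyte genes had a UMI and summed to 165 CPM pooled, against 174 CPM in the other Slc17a7 neurons. All 6 microglial genes had a UMI and summed to 51.6 against 62.3 CPM. The 6 astrocyte genes, 4 of them with a UMI, summed to 64.3 against 172 CPM. Summed over each list, the 7 oligodendrocyte markers had 122 to 206 CPM in the 5xFAD libraries and 102 to 224 in the others, the 6 astrocyte markers 33.8 to 104 and 18.6 to 99.3 CPM, and the 6 microglial markers 26.8 to 75.0 and 41.8 to 67.5 CPM, so the groups overlapped for each. The 10 inhibitory markers, of which 5 had a UMI, had 33.8 to 209 CPM in the Cnp-/- libraries and 17.9 to 38.7 CPM in those with Cnp. Adarb2 made up most of that sum and was the 1 inhibitory gene high enough to be tested (1.41 on the log2 scale for Cnp, SE 0.452, unadjusted p = 0.00616, which failed the adjustment in edgeR).

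The 243 nuclei were not uniform. In the clusters that the authors deposited, 94 nuclei were in cluster 22, 51 in cluster 14, 35 in cluster 0, 22 in cluster 17, 19 in cluster 4 and the other 22 in 7 more clusters. After Fezf2 itself, cluster 22 nuclei were led by Gm2164, L3mbtl4, Gm19410, Tcerg1l, Trmt9b and Parm1, and those of cluster 14 were led by Gm2115, Pde11a, Gm2164, Fezf2, Trpc4 and Dnah9. Members of cluster 17 were led by Cobll1 and Thsd7b, with Tle4 and Hs3st4 among the first genes, and had 3218 CPM of Hs3st4. Members of cluster 4 had 2741 CPM of Il1rapl2, a gene of layer 5 neurons that project within the telencephalon. Clusters 22 and 14 shared Gm2164 and Parm1 among their first 10 genes, but differed in others, with 7.22 and 245 CPM of Pde11a, 189 and 27.6 CPM of L3mbtl4 and 152 and 560 CPM of Tshz2. Members of cluster 0 were led by Fezf2, Gm2164, Parm1 and Ror1 and had 519 CPM of Tshz2. The 243 nuclei are therefore named by the rule, as Fezf2 neurons, and not as a single layer 5 type. Cluster 22 made up 18.8% of the nuclei in Cnp-/- replicate 2 and 75.0% in Cnp-/- 5xFAD replicate 2, with the other 6 libraries between 33.3% and 40.9%. Cluster 14 made up 0% to 37.5%.

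The share of Slc17a7 neurons that met the rule was 1.57% and 2.75% in the WT libraries, 1.17% and 0.805% in Cnp-/-, 2.24% and 1.33% in 5xFAD and 0.998% and 0.507% in Cnp-/- 5xFAD. All 4 Cnp-/- libraries lay below all 4 libraries with Cnp. The mean was 0.869% ± 0.283 (SD, n = 4) without Cnp and 1.97% ± 0.645 (SD, n = 4) with it, a difference of -1.11 percentage points with a two-sided exact permutation p of 0.0286, which is the smallest that the 70 relabellings of 4 against 4 libraries allow. Adjusted over the 2 share comparisons it was 0.0571, so the difference did not pass. As a share of all annotated neurons the difference was -0.441 points (exact permutation p = 0.143). The share also depends on depth, since a nucleus needs 2 Fezf2 UMIs, and the count was repeated at a fixed depth of 5000 UMIs a nucleus, without the 8202 shallower neurons. There 29 nuclei met the rule, 21 of them among the 243, and the difference was -0.367 points (exact permutation p = 0.0286). The 5xFAD libraries had 1.27% ± 0.729 (SD, n = 4) and the others 1.57% ± 0.846 (SD, n = 4), a difference within the spread of libraries (exact permutation p = 0.6). Dissection and the recovery of nuclei were not measured, and their part in these shares was not tested.

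**Figure D2:**
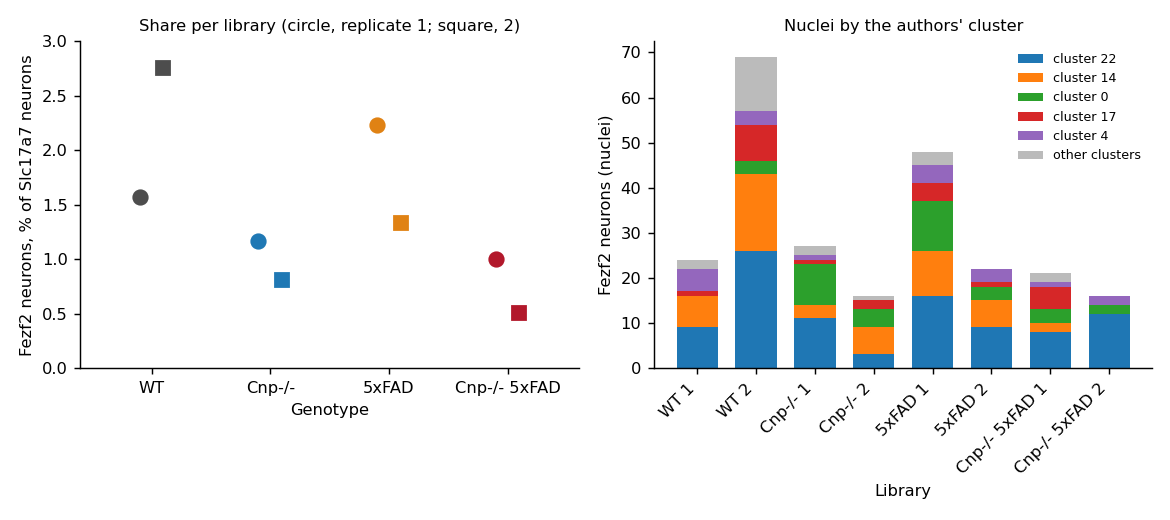
Fezf2 neurons in each of the 8 libraries: their share of the Slc17a7 neurons in percent, with circles for replicate 1 and squares for replicate 2, and the number of nuclei per library as stacked bars by cluster. The shares run from 0.507% to 2.75%, the 4 Cnp-/- libraries lie below the 4 libraries with Cnp, and cluster 22 holds 94 of the 243 nuclei.

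The first comparison addressed what 5xFAD did in these neurons, over 4 libraries with and 4 without the transgenes. Thy1 was the 1 gene that passed. Thy1 stood at 29.9 and 44.3 CPM in WT replicates 1 and 2 (12 and 48 UMIs) and at 35.7 and 23.2 CPM in Cnp-/- (18 and 5 UMIs). In 5xFAD it stood at 103 and 104 CPM (92 and 35 UMIs) and in Cnp-/- 5xFAD at 115 and 82.1 CPM (36 and 17 UMIs). The lowest library with the transgenes was above the highest without them. The means were 101 ± 13.9 CPM (SD, n = 4) and 33.3 ± 8.95 CPM (SD, n = 4).

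The difference was 1.50 on the log2 scale (SE 0.226, 95% confidence interval 1.02 to 1.97), a 2.82-fold higher level, with an adjusted p of 0.0239 over 6654 genes by edgeR's quasi-likelihood test. Of these 6654 genes, 0.015% passed and 3.17% had libraries that did not overlap between the groups. At an unadjusted p below 0.05 there were 355 genes (5.34%), of which 146 were higher and 209 lower. The rise was positive in 19 of 19 other settings (1.34 to 1.72 on the log2 scale, unadjusted p at most 0.00414), but the adjusted p ran from 7.68e-06 to 0.496 and missed the threshold in 11 of them. Among these were the fits without Cnp-/- replicate 2 (adjusted p = 0.0764), without 5xFAD replicate 1 (0.0565), without 5xFAD replicate 2 (0.0585), without Cnp-/- 5xFAD replicate 1 (0.0855), with the replicate block (0.0752) and by DESeq2 (0.0639).

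The 5xFAD difference in Thy1 had the same sign on both backgrounds. With Cnp present it was 1.34 on the log2 scale (SE 0.274, adjusted p = 0.269) and without Cnp 1.65 (SE 0.360, adjusted p = 0.115), each over 2 against 2 libraries within the same edgeR fit. The difference between backgrounds was 0.31 (SE 0.460, 95% confidence interval -0.66 to 1.27, adjusted p = 0.999). Between Cnp-/- libraries and those with Cnp, Thy1 differed by -0.16 (SE 0.230, unadjusted p = 0.485, edgeR).

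Thy1 (ENSMUSG00000032011) lies on the plus strand of chromosome 9, at chr9:44043384-44048579 in mm10 (GRCm38). The transgene cassettes carry Thy1 sequence beside the human coding sequences. A UMI of such a transcript and a UMI of the endogenous gene cannot be told apart in these counts, so the values below are of both together.

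More of the nuclei contained Thy1, and some contained much more of it. Without the transgenes 37.5%, 52.2%, 44.4% and 25.0% of the nuclei in the 4 libraries (WT 1 and 2, Cnp-/- 1 and 2) held a Thy1 UMI, and with them 75.0%, 72.7%, 90.5% and 62.5% (5xFAD 1 and 2, Cnp-/- 5xFAD 1 and 2). Wilson 95% intervals, which cover counting error only, were wide in libraries of 16 nuclei, at 10.2% to 49.5% in Cnp-/- replicate 2 and 38.6% to 81.5% in Cnp-/- 5xFAD replicate 2. With every nucleus thinned to 5000 UMIs, which left out 1 nucleus of WT replicate 2 and 2 of Cnp-/- replicate 2, the shares were 7.14% to 18.5% without and 36.4% to 47.6% with the transgenes. In mature oligodendrocytes, which should lack Thy1, the share was 0% to 0.295% at medians of 1108 to 2020 UMIs.

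Of the 107 nuclei from 5xFAD libraries 28 held at least 3 Thy1 UMIs (26.2%), and of the 136 from the others 1 did (0.735%). At the other end, 26 nuclei (24.3%) and 75 nuclei (55.1%) held none. The highest count in a nucleus was 7 with the transgenes and 3 without. Nuclei of a library are not replicates, so these pooled counts carry no test.

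**Figure D3:**
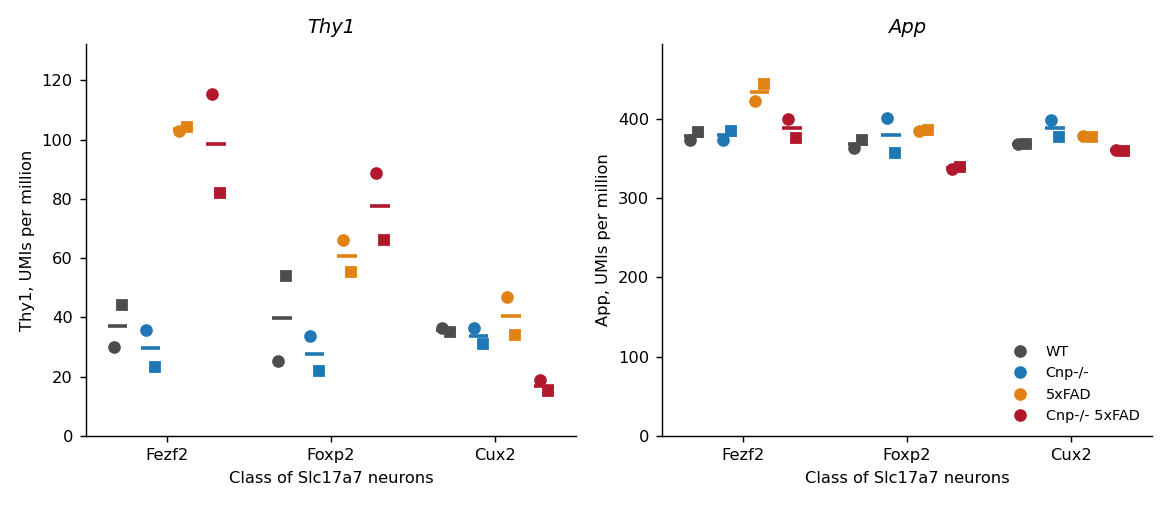
Thy1 and App in CPM in each library for the Fezf2, Cux2 and Foxp2 neurons, coloured by genotype. Circles are replicate 1, squares replicate 2 and horizontal lines the genotype means. Thy1 in the Fezf2 neurons runs from 82.1 to 115 CPM with the transgenes and from 23.2 to 44.3 without, while App runs from 377 to 444 and from 373 to 385.

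The 5xFAD difference in Thy1 was set beside that in the other neuron groups. In Cux2 neurons Thy1 was at 36.3 and 35.1 CPM in WT, 36.4 and 30.9 in Cnp-/-, 46.9 and 34.1 in 5xFAD, and 18.9 and 15.1 in Cnp-/- 5xFAD, so that the groups overlapped. In Foxp2 neurons it was at 25.2 and 54.1 CPM in WT, 33.7 and 21.8 in Cnp-/-, 66.2 and 55.4 in 5xFAD and 88.7 and 66.1 in Cnp-/- 5xFAD, with all 4 libraries of 5xFAD genotype above the other 4. In fits of each group on its own the 5xFAD difference was -0.43 on the log2 scale in Cux2 neurons (SE 0.127, adjusted p = 0.812, edgeR) and 0.96 in Foxp2 neurons (SE 0.208, adjusted p = 0.538, edgeR).

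In a joint edgeR fit of the 3 neuron groups with the library as a block, the 5xFAD difference of Thy1 in Fezf2 neurons exceeded that in Cux2 neurons by 1.76 (SE 0.374, 95% confidence interval 0.99 to 2.53). Its unadjusted p was 7.81e-05 and its adjusted p 0.339 over 13001 genes, so it did not pass. In that comparison 0 genes passed (0%) and 692 had an unadjusted p below 0.05 (5.32%). Over 11 other settings the difference ran from 1.54 to 2.23, the highest without WT replicate 2, and it passed in 2 of them. Taken per library, the log2 ratio of Thy1 in Fezf2 over Cux2 neurons was 2.05 higher in the 5xFAD libraries, with no overlap between the groups (exact permutation p = 0.0286, adjusted p = 0.0743 over 26 such tests). The ratio was 1.14 and 1.61 in 5xFAD and 2.61 and 2.45 in Cnp-/- 5xFAD, against -0.41 to 0.34 without the transgenes. The joint fit took 1 value over both backgrounds. Against Foxp2 neurons the joint fit gave 0.34 (SE 0.422, 95% confidence interval -0.53 to 1.20, adjusted p = 0.991), which did not pass. The log2 ratio of Thy1 in Fezf2 over Foxp2 neurons was 0.31 to 0.91 in the 4 libraries with the transgenes and -0.29 to 0.25 in the others, 0.53 higher on average with no overlap (exact permutation p = 0.0286, adjusted p = 0.0743).

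Thy1 was then read by cluster within the Fezf2 neurons. In members of clusters 22 and 14 together, Thy1 was 117 to 148 CPM in the 4 libraries with the transgenes and 25.3 to 55.0 CPM in the 4 without. The means were 133 ± 13.5 and 38.4 ± 13.6 CPM (SD, n = 4 each). In members of all other clusters it was 70.3, 31.7, 102 and 25.4 CPM in 5xFAD replicates 1 and 2 and Cnp-/- 5xFAD replicates 1 and 2, against 20.7 to 30.4 CPM without the transgenes, and the groups overlapped (exact permutation p = 0.143). A library held as few as 4 of these 98 nuclei, against at least 9 nuclei in clusters 22 and 14, so the overlap rests on few nuclei. Cluster 17 members held 9 Thy1 UMIs in 10 nuclei with the transgenes and 0 in 12 nuclei without, and cluster 4 members held 5 UMIs in 10 nuclei and 4 in 9.

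Slc17a7 neurons that the rule had not taken gave values for the same clusters in other nuclei of the same libraries. In 480 further nuclei of cluster 22, Thy1 was 114 ± 36.2 CPM (SD, n = 4) with the transgenes and 41.8 ± 9.70 CPM (SD, n = 4) without. In 901 further nuclei of cluster 14 it was 131 ± 33.5 and 37.8 ± 8.90 CPM (SD, n = 4 each), although 1 library held only 5 of these nuclei. Neither pair of groups overlapped (exact permutation p = 0.0286 and adjusted p = 0.0743 for both). In cluster 0 the means were 43.9 and 32.6 CPM (exact permutation p = 0.286), in cluster 17 they were 45.3 and 26.1 CPM (p = 0.114, exact) and in cluster 4 they were 56.6 and 43.2 CPM (p = 0.429, exact). The means of clusters 22, 0 and 4 hide a split by background, which was not tested. Cluster 22 had 158 and 124 CPM in 5xFAD and 97.7 and 74.1 in Cnp-/- 5xFAD, against 33.0 to 51.5 without the transgenes. Cluster 0 had 62.0 and 49.3 CPM in 5xFAD and 32.3 and 32.0 in Cnp-/- 5xFAD, against 24.8 to 37.1 without the transgenes. Cluster 4 had 80.2 and 71.7 CPM in 5xFAD and 37.9 and 36.6 in Cnp-/- 5xFAD, against 38.3 to 48.2 without. Cluster 17 had no such split, with 48.4 and 35.8 CPM in 5xFAD and 67.8 and 29.4 in Cnp-/- 5xFAD, against 12.1 to 37.9 without. The clustering used expression over all libraries and may have included Thy1.

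The 806 neurons with exactly 1 Fezf2 UMI had 104, 104, 71.8 and 47.3 CPM of Thy1 in 5xFAD replicates 1 and 2 and Cnp-/- 5xFAD replicates 1 and 2, and 23.3 to 41.1 CPM in the libraries without the transgenes (exact permutation p = 0.0286, adjusted p = 0.0743). The groups did not overlap there either.

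**Figure D4:**
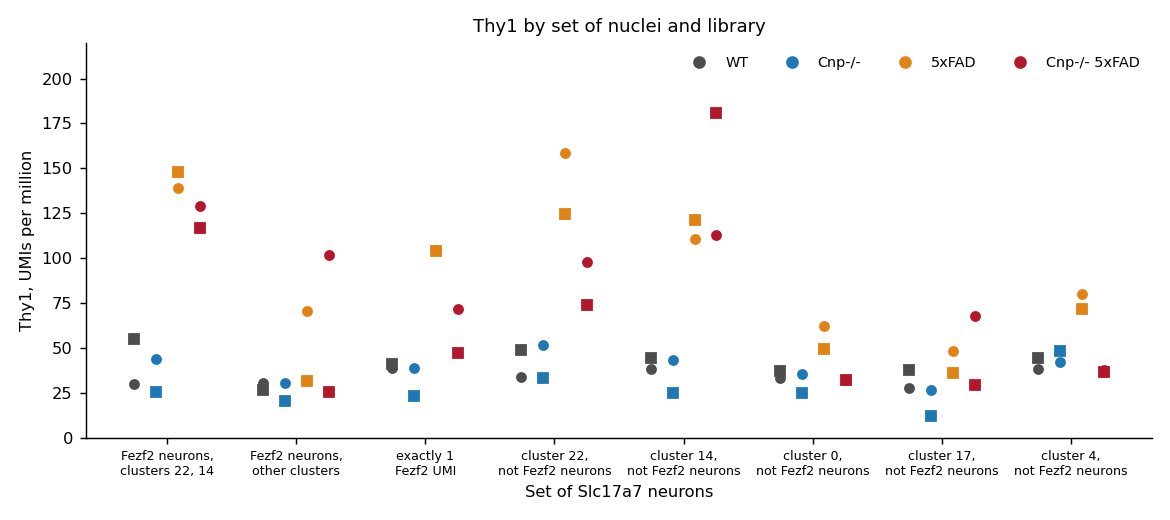
Thy1 in CPM per library in Fezf2 neurons of clusters 22 and 14, Fezf2 neurons of the other clusters, neurons with exactly 1 Fezf2 UMI, and the other Slc17a7 neurons of 5 clusters. Points are libraries, coloured by genotype, with circles for replicate 1 and squares for replicate 2. Libraries with and without the transgenes do not overlap in clusters 22 and 14 or in the neurons with 1 Fezf2 UMI, and overlap in clusters 0, 17 and 4 and in Fezf2 neurons of the other clusters. In the last of these sets a library held as few as 4 nuclei.

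App, the mouse gene for the amyloid precursor protein, did not pass the test. It had 373 and 384 CPM in WT, 373 and 385 in Cnp-/-, 423 and 444 in 5xFAD and 400 and 377 in Cnp-/- 5xFAD. The 2 5xFAD libraries were highest, and Cnp-/- 5xFAD replicate 2 fell among the libraries without the transgenes. The means were 411 ± 29.3 and 379 ± 6.47 CPM (SD, n = 4 each), and the difference was 0.08 on the log2 scale (SE 0.128, 95% confidence interval -0.18 to 0.35, adjusted p = 0.983, edgeR). A change of App above 0.35 on the log2 scale lies outside that interval. App (ENSMUSG00000022892) lies on the minus strand at chr16:84949685-85173766 in mm10, and reads of the human transgene that align to it are not separable in the counts.

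Against Cux2 neurons the 5xFAD difference of App was larger by 0.14 (SE 0.102, adjusted p = 0.964) and against Foxp2 neurons by 0.15 (SE 0.106, adjusted p = 0.955), both by edgeR. The log2 ratio of App in Fezf2 neurons over Cux2 neurons was 0.15 higher in the 5xFAD libraries and over Foxp2 neurons 0.17 higher. Both ratios separated the 4 and 4 libraries (exact permutation p = 0.0286, adjusted p = 0.0743). App itself did not separate them in Cux2 or in Foxp2 neurons (exact permutation p = 0.429 and 0.486).

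The other genes of amyloid production and clearance gave no call. Of 19 listed genes 13 were tested, Thy1 included, and 1 passed, with a median difference of -0.06 on the log2 scale beside -0.00 for all genes tested. Bace1, the beta-secretase, differed by -0.01, and Adam10, an alpha-secretase, by -0.09. The sorting receptor gene Sorl1, which steers the precursor protein through endosomes, had 221 to 272 CPM with the transgenes and 252 to 311 without (-0.24, SE 0.143, adjusted p = 0.959, edgeR).

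As a trait of these neurons in every genotype, Sorl1 had 274 CPM pooled and 221 to 311 CPM over the libraries, against 155 CPM in the other Slc17a7 neurons. It was above them in 8 of 8 libraries. The level differed by cluster, with 368 CPM in members of cluster 22 and 235 to 240 CPM in those of clusters 14, 0 and 4. Members of cluster 17 had 81.9 CPM of Sorl1, below the other Slc17a7 neurons. Aph1b, a subunit of gamma-secretase, had 27.6 against 13.8 CPM, also higher in 8 of 8 libraries. Adam10 had 109 against 92.4 CPM, but Foxp2 neurons had 117 CPM and the Fezf2 neurons were above them in 3 of 8 libraries. Gap43, a growth cone protein, had 174 against 109 CPM and was higher in 8 of 8.

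No layer, axon, synapse or stress list had a member past the threshold for 5xFAD. Over all lists, 9 of 108 genes tested had an unadjusted p below 0.05 (8.33%), Thy1 among them, beside 5.34% of all genes. Of the list for layer 5 neurons that leave the telencephalon 9 of 12 genes were tested and the median difference was -0.31. Bcl11b and Ldb2 differed by -0.09 and -0.18.

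Lists for the other deep-layer types gave no call either, although some of their genes passed in other settings. For layer 5 neurons that project within the telencephalon 4 genes were tested, with a median of 0.50, and Il1rapl2 had 495 to 637 CPM with and 130 to 560 CPM without the transgenes (0.61, SE 0.195, adjusted p = 0.596, edgeR). It passed in 2 of 19 other settings, among them without Cnp-/- replicate 1 (1.12, adjusted p = 0.00688), and was 0.056 with only WT and 5xFAD libraries. For near-projecting neurons 4 genes were tested, with a median of -0.71. Tshz2, a transcription factor gene of that type, had 67.6 to 307 CPM with and 303 to 761 CPM without the transgenes (-1.19, SE 0.273, adjusted p = 0.214, edgeR). It passed in 5 of 19 other settings, which were no filter on low counts (-1.20, adjusted p = 5.07e-10), at least 3 Fezf2 UMIs (-2.66, 0.00755), clusters 22 and 14 alone (-1.88, 0.0133), without Cnp-/- replicate 1 (-1.43, 0.0103) and without Cnp-/- 5xFAD replicate 1 (-1.81, 0.0257). With only WT and 5xFAD libraries it was -0.62. Cluster 14 made up 20.8%, 27.3%, 9.52% and 0% of the nuclei in the libraries with the transgenes and 29.2%, 24.6%, 11.1% and 37.5% in the others, so the groups overlapped, and the part of this makeup in these values was not tested.

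Trpc4, a cation channel gene and one of the genes leading cluster 14, came nearest to the threshold after Thy1 and was picked out for that. It had 351 and 267 CPM in WT, 203 and 320 in Cnp-/-, 159 and 203 in 5xFAD and 83.2 and 121 in Cnp-/- 5xFAD. The highest 5xFAD library and the lowest of the others were level at 203 CPM. The difference was -1.09 (SE 0.194, adjusted p = 0.0872, edgeR). It passed in 4 of 19 other settings, which were no filter on low counts (-1.10, adjusted p = 3.87e-06), clusters 22 and 14 alone (-1.18, 0.0189), without WT replicate 2 (-1.20, 0.0292) and without Cnp-/- replicate 1 (-1.27, 0.00552).

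Of the 12 genes of the axon initial segment and the node of Ranvier, all 12 were tested and 1, Kcnq3, had libraries that did not overlap. Kcnq3, a subunit of the M-type potassium channel that is anchored at the initial segment, had 666 to 901 CPM with and 955 to 1165 CPM without the transgenes (-0.44, SE 0.130, adjusted p = 0.487, edgeR). Ank3, which encodes ankyrin G, the scaffold of the segment, differed by -0.07. The list's median was -0.03, and its share without overlap stands beside 3.17% of all genes.

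Of 10 glutamate receptor genes, 2 had libraries that did not overlap, beside 3.17% of all genes. The NMDA receptor subunit gene Grin2a had 1306 to 1468 CPM with and 1607 to 1671 CPM without the transgenes, and Grin2b had 1371 to 1498 and 1539 to 1717 CPM. Their differences were -0.28 (adjusted p = 0.835) and -0.20 (adjusted p = 0.959) by edgeR. The AMPA receptor gene Gria2 differed by -0.09, and the list's median was -0.09.

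Genes of neurofilaments and axonal transport (11 tested, median -0.05), of endosomes and lysosomes (8 tested, median 0.14), of the unfolded protein and integrated stress responses (4 tested, median 0.25) and of the immediate early response (6 tested, median -0.52) held no gene with an unadjusted p below 0.05. Among them Mapt, which encodes tau, differed by -0.09, the lysosomal protease Ctsb by 0.56, the stress sensor Atf6 by 0.11 and the activity gene Nr4a1 by -0.39. Of the axon injury genes 2 of 8 were tested, and Gap43 differed by -0.00 and Stmn2 by -0.18. The others were too low for the test.

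**Figure D5:**
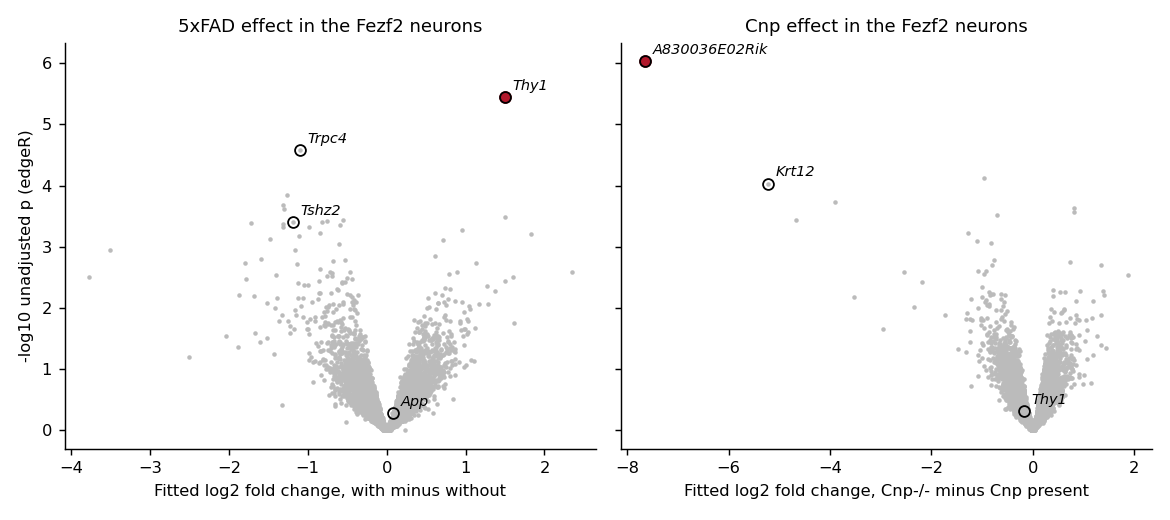
Fitted log2 difference between libraries with and without 5xFAD, and between Cnp-/- libraries and those with Cnp (horizontal axes), against the unadjusted p of edgeR on a -log10 scale (vertical axis). Each dot is 1 of 6654 genes, filled red circles passed the adjustment and open circles mark named genes. Thy1 at 1.50 is the red gene for 5xFAD and A830036E02Rik, whose fitted size depends on the prior count, the one for Cnp.

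The second comparison addressed what loss of Cnp did in these neurons. A single gene passed of 6654 (0.015%), and it was lower in Cnp-/-. The noncoding gene A830036E02Rik (ENSMUSG00000084890) had 15 and 49 UMIs in WT (37.3 and 45.2 CPM), 34 and 33 UMIs in 5xFAD (38.1 and 98.4 CPM) and 0 UMIs in each of the 4 Cnp-/- libraries. It was at least 19.9-fold lower there, taking 3 UMIs over the 4 libraries as the floor (adjusted p = 0.00616, edgeR). Libraries did not overlap for this gene, as for 2.51% of all genes tested.

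The same gene was low without Cnp in other neurons. In Cux2 neurons it was at 74.3 to 95.8 CPM in the libraries with Cnp and 0.494 to 1.27 CPM in the others. In Foxp2 neurons it was at 19.1 to 40.4 and 0 to 0.991 CPM. A830036E02Rik lies on the plus strand at chr11:99416956-99425497 in mm10, 1149 kb from Cnp at chr11:100574904-100591729. It is annotated as antisense and overlaps the keratin gene Krt12 on the minus strand at chr11:99415666-99422259. Krt12 had 14 and 18 UMIs in WT, 18 and 11 in 5xFAD, and 1 UMI in all 4 Cnp-/- libraries together, with an adjusted p of 0.206 by edgeR. How the counts were assigned by strand is not given in the sources used here, so reads of these overlapping genes may not be fully separable.

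None of the gene lists held a member past the threshold for Cnp, and 259 of all genes had an unadjusted p below 0.05 (3.89%). App differed by -0.06 (SE 0.128, 95% confidence interval -0.33 to 0.20). Of the axon initial segment and node list 12 genes were tested, with a median of -0.06. Over all lists, 7 of 108 genes tested had an unadjusted p below 0.05 (6.48%). These were Nxph1 (-2.53), Meis2 (0.64), Adarb2 (1.41), Ina (0.63), Kif5a (-0.44), Il1rapl2 (-0.47) and Ddx3y (-0.57), each with an adjusted p of at least 0.954 by edgeR.

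The third comparison asked whether the 5xFAD difference depended on Cnp. One gene passed of 6654 (0.015%), and 314 had an unadjusted p below 0.05 (4.72%). Of the 108 listed genes tested 10 did (9.26%), and none of them passed the adjustment in edgeR. Erg, an ETS transcription factor gene known from endothelium, had 22 and 28 UMIs in WT, 0 in both Cnp-/- libraries, 0 in both 5xFAD libraries and 5 and 15 UMIs in Cnp-/- 5xFAD. Against the floor of 3 UMIs over a group, WT was at least 8.06-fold higher than Cnp-/- and at least 13.8-fold higher than 5xFAD, and Cnp-/- 5xFAD at least 15.8-fold higher than 5xFAD. The adjusted p was 0.0465 by edgeR, and the call was lost in 7 of 16 other settings (adjusted p up to 0.382), among them without WT replicate 1 (0.153), 5xFAD replicate 1 (0.313) or Cnp-/- 5xFAD replicate 2 (0.382). With at least 3 Fezf2 UMIs the filter on low counts left Erg out. Of the vascular genes listed, Cldn5, Pecam1 and Rgs5 had 0 UMIs in these nuclei and Flt1 had 3, and the part of vascular RNA in the Erg values was not tested.

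Against the Foxp2 neurons, 1 of 13001 genes passed for 5xFAD (0.00769%) and 712 had an unadjusted p below 0.05 (5.48%). Kirrel3, a synaptic adhesion gene of the immunoglobulin family, had 1684 and 1170 CPM in WT, 1281 and 1518 in Cnp-/-, 1625 and 2249 in 5xFAD and 2049 and 1265 in Cnp-/- 5xFAD in the Fezf2 neurons. In Foxp2 neurons it had 1059 and 545, 449 and 484, 548 and 658, and 318 and 257 CPM in the same order. The groups overlapped in both kinds of neurons. The 5xFAD difference in Fezf2 neurons was larger by 0.83 on the log2 scale (SE 0.128, 95% confidence interval 0.57 to 1.10, adjusted p = 0.00906, edgeR). The call was lost without Cnp-/- 5xFAD replicate 1 (adjusted p = 0.0955) and with the replicate block in place of the library (adjusted p = 1).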

How the data were processed

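Nuclei of frozen brain hemispheres were profiled by the 10x Chromium 3′ protocol in 8 libraries. Per the labels and the study's methods, the authors used Cell Ranger 6.1.2 with mm10, then CellBender against ambient RNA, limits on genes and UMIs per nucleus, and Seurat for clusters and cell types. The deposited values used are raw UMI counts for 32285 genes. The percent of mitochondrial UMIs per nucleus, also deposited, was read but entered no result. How doublets were treated, and whether intronic reads were counted, is not given in the sources used here. Ambient removal lowers free RNA and can also lower weakly expressed genes.

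Counts were summed per library over the nuclei chosen. The nuclei, gene lists and tests were chosen with earlier results of these data known. Genes were filtered by filterByExpr, scaled by TMM and tested by edgeR 4.0.16 (R 4.3.3), two-sided, with 1 mean per genotype and a Benjamini-Hochberg threshold of 0.05. The 5xFAD and Cnp differences are means over both backgrounds. Neuron groups were compared in 1 fit of 24 profiles with the library as a block. Single values were compared by exact permutation tests over libraries (scipy 1.17.1, Python 3.11.15), 26 in one family. DESeq2 1.42.0, no filter, the replicate number as a block, other choices of nuclei and leaving out each library were tried. The fits were tested on simulated data.

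Genes were named by rule: App, Thy1 and Cnp, genes past the threshold, and the most abundant members of each list. Trpc4, Krt12, Bace1, Bcl6, Ctsb, Kif5a, Ina, Aph1b and genes that describe identity or clusters were added after their values were seen. The replicate numbers did not pair the libraries: correlations of same-numbered deviations ran from -0.057 to 0.0562 over 6 pairs of genotypes. The total per library was 207148 to 1084222 UMIs, and the estimated biological coefficient of variation was 0.141. Intervals of shares and counts cover counting error only. Some genes are not reported here, and no sequence is printed.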

Additional observations from a re-analysis of the deposited data

Results flagged for a closer look

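In 2 of 14 sets of 4 libraries that were checked, 1 library stood apart from the other 3 by Dixon's test, which by chance marks about 5% of such sets. A830036E02Rik was at 98.4 CPM in 5xFAD replicate 2, with the other libraries with Cnp between 37.3 and 45.2 CPM. Krt12 was at 1.99 CPM in Cnp-/- replicate 1, which is 1 UMI, with 0 in the other Cnp-/- libraries. A set with 3 libraries at 0 and 1 above is always marked, so the rate of 5% does not apply to Krt12. Erg differed in its response to 5xFAD between the backgrounds with and without Cnp. Its fitted interaction of 14.54 on the log2 scale comes from libraries at 0 UMIs and depends on the prior count, so it is no measure of size. Kirrel3 differed in its 5xFAD response between Fezf2 and Foxp2 neurons by 0.83 on the log2 scale.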

How the results depend on the processing

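With nuclei as few as 16 in a library, small changes were not detectable, and the counts of genes past the threshold moved with the setting. Without a filter on low counts there were 41 genes for 5xFAD, 18 for Cnp, 41 for the interaction, 51 against Cux2 neurons and 33 against Foxp2 neurons. DESeq2 gave 0 for 5xFAD (126 at an unadjusted p below 0.05) and 3 for the interaction. The same number of nuclei in each library gave 0 for 5xFAD and 0 for the interaction. At least 3 Fezf2 UMIs gave 2 for 5xFAD, 0 for Cnp and 3 for the interaction. Nuclei of 10000 to 40000 UMIs gave 0, 3 and 2, and at most 2 glial UMIs gave 0 for the interaction. Clusters 22 and 14 alone, an alternative chosen after seeing the data, gave 4, 0 and 4. Only WT and 5xFAD libraries gave 3 for 5xFAD, only Cnp-/- and Cnp-/- 5xFAD libraries 0, only WT and Cnp-/- libraries 0 for Cnp, and only 5xFAD and Cnp-/- 5xFAD libraries 5. Leaving out 1 library gave 0 to 29 genes for 5xFAD (29 without Cnp-/- replicate 1), 1 to 5 for Cnp, 0 to 13 for the interaction, 0 to 6 against Cux2 neurons and 1 to 8 against Foxp2 neurons. The cause was not tested.

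With the replicate number as a block, 0 genes passed for 5xFAD, 1 for Cnp, 0 for the interaction, 0 against Cux2 neurons and 0 against Foxp2 neurons. Thy1 was then at 1.49 (adjusted p = 0.0752), Erg at an adjusted p of 0.174 and the Cnp share difference at -1.11 points with an exact permutation p of 0.0556. The call of Kirrel3 against Foxp2 neurons was also lost, and the block changed no other call.

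The share difference for Cnp was -0.441 points of all annotated neurons and -0.312 of all nuclei (exact permutation p = 0.143 for both), -0.294 with at least 3 Fezf2 UMIs (p = 0.0857, exact), and -1.32 to -0.845 without 1 library (p = 0.0286 to 0.0571, exact). The share difference for 5xFAD turned to 0.031 after thinning and ran from -0.629 to 0.0867 without 1 library, the latter without WT replicate 2. Among genes that passed no test, the sign also turned for Bace1 (0.039 with few glial UMIs, 0.06, 0.03, 0.07 and 0.15 among fits of -0.32 to 0.15 without 1 library), Adam10 (0.049 in clusters 22 and 14), Thy1 for Cnp (-0.38 to 0.028 without 1 library, the latter without WT replicate 2), App for Cnp (0.088 with equal numbers of nuclei, 0.10 with at least 3 Fezf2 UMIs) and Thy1 for the interaction (-0.30 with at least 3 Fezf2 UMIs, -0.077 to 0.74 without 1 library, the former without WT replicate 2). A830036E02Rik passed in 15 of the 17 settings that tested it and missed in the 2 single pairs of genotypes (adjusted p = 0.0974 and 0.0701). Of the 19 settings run for Cnp, the filter on low counts left it untested with at least 3 Fezf2 UMIs and in clusters 22 and 14 alone.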
